A study of Lactuca sativa with 6 samples.

Results

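The genes described here encode enzymes and proteins that build, modify or carry the lipids of the leaf surface. They were picked by words in their Swiss-Prot descriptions: 3-ketoacyl-CoA synthase, acyl-CoA reductase, ECERIFERUM, MAH1, O-acyltransferase WSD1, glycerol-3-phosphate acyltransferase, GDSL esterase, lipid-transfer protein and protodermal factor. The rule found 52 of the 2579 genes in the table. It used the descriptions and no expression value, but the words were chosen with earlier results of these data known. Each name is that of the closest Swiss-Prot protein, which was an Arabidopsis protein for 45 of the 52, so a name stands for similarity and not for a tested function in lettuce.

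RNA was taken from young leaves of 1-month-old lettuce (*Lactuca sativa*, cultivar S39). The overexpression plants (*LsAP2*-OE) carried the coding sequence of the lettuce *APETALA2* gene behind the cauliflower mosaic virus 35S promoter, introduced with *Agrobacterium*, and the reference plants were wild type (WT). Each group had 3 libraries, which are described as biological replicates. The sources used here do not say which overexpression line or lines were sequenced, so a trait of a single line and a response to *LsAP2* cannot be told apart. The 35S promoter is active in most plant cell types and does not follow the native pattern of the gene.

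Each library has 1 normalized expression value per gene, whose kind of normalization is not named, and the sequencing depth is unknown. Values of different genes are therefore not on a common scale per length, and a ranking or sum over genes serves only to pick or summarise them. *LsAP2* (Lsat_1_v5_gn_3_89681) had values of 214, 209 and 224 in the *LsAP2*-OE libraries, against 25.3, 27.9 and 30.5 in the WT libraries, which fits the labels. All 6 genes of the table described as the Rubisco small chain, a marker of photosynthetic leaf tissue, had values above 0 in every library. Their summed values were 16951 to 19691 in *LsAP2*-OE and 6074 to 6512 in WT. The copy Lsat_1_v5_gn_2_79541 was close to 0 in WT, at 0.0951, 0.111 and 0.177. Across the table, Pearson correlations of log2 values were 0.986 to 0.99 within a group and 0.733 to 0.745 between groups. These are correlations across genes, which are not independent replicates. Every gene of the table had been called between these same libraries, so the lower correlation between groups was built in by that choice. It does not show how alike the groups were over all genes.

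The cuticle is a layer on the outer wall of epidermal cells that limits water loss and keeps organs from fusing. It consists of cutin, a polyester of hydroxylated fatty acids and glycerol, and of waxes, which are very-long-chain fatty acids and the alkanes, alcohols, ketones and esters made from them. Fatty acids leave the plastid, are lengthened and modified at the endoplasmic reticulum, and are then exported to the cell wall, where lipid-transfer proteins bind lipids and some GDSL esterase/lipases join cutin monomers.

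No single direction held across these genes. In *LsAP2*-OE leaves, 33 of the 52 genes were higher and 19 were lower, with a limma adjusted p below 0.01 on the scale log2(value + 0.1), where SE below is the standard error of a log2 fold change. Over the whole table, 98.7% of genes passed this test, 59.1% as higher and 39.6% as lower. The 63.5% of these genes that were higher is close to the share in the table and is not a result about them. The table holds only genes that had already been called between these same libraries, so a gene passing the test here is no independent evidence. Unchanged members of a family are not among these counts. In leaf tissue as a whole, fewer cells of a type and less RNA per cell cannot be told apart.

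Both the direction and the size of the change varied from gene to gene. The log2 fold changes, *LsAP2*-OE over WT, ran from −5.31 to 5.07 with a median of 1.23, beside a median of 1.03 over the table. Those that rose had a median of 1.81, beside 1.38 for all genes that rose, and those that fell had a median of −1.85, beside −1.49. A log2 fold change of at least 2 was found for 12 of the 52, while 15.1% of the table reached it. A change of −2 or less was found for 9, while 8.07% of the table reached it. In none of the 52 genes did the 3 *LsAP2*-OE values overlap the 3 WT values, 33 lying above and 19 below. The same held for 99.4% of the table, 59.6% lying above and 39.7% below.

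**Figure D1:**
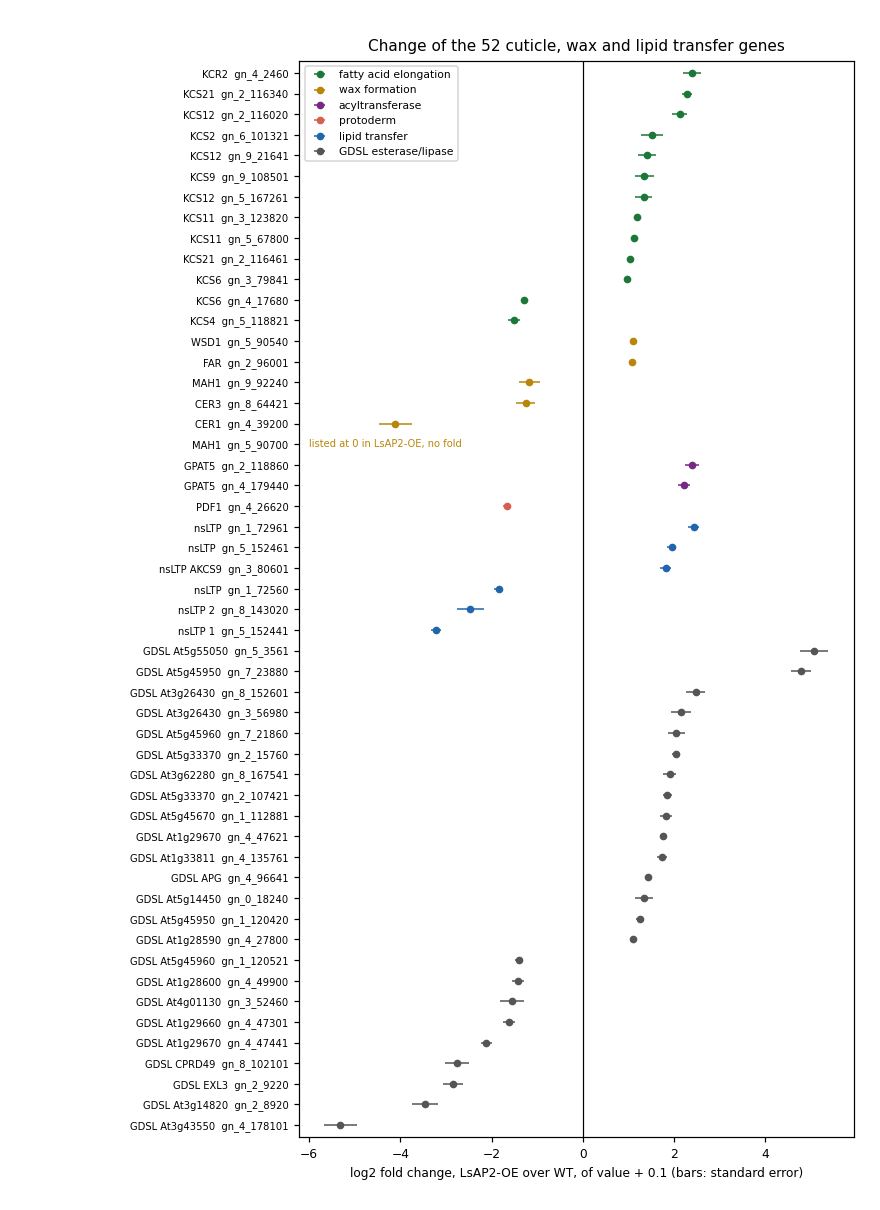
Log2 fold change (*LsAP2*-OE over WT, of value + 0.1) of the 52 genes, with points colored by role and bars for the standard error from limma (3 libraries per group). Elongation genes lie mostly right of 0 (11 of 13), 4 of the 6 wax genes are lower (*CER1*, *CER3* and both *MAH1* genes), and the lipid-transfer proteins and GDSL esterase/lipases lie on both sides; the *MAH1* gene listed at 0 in every *LsAP2*-OE library has no point.

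Genes of fatty acid elongation were mostly higher in *LsAP2*-OE leaves. The elongase of the endoplasmic reticulum adds carbons to an acyl-CoA, and 3-ketoacyl-CoA synthase (KCS) is the condensing enzyme that sets the chain length. Of the 13 elongation genes, 11 rose and 2 fell. The median log2 fold change was 1.33, in a range of −1.51 to 2.40. Among the 12 KCS genes, 10 rose and 2 fell. The share that rose, 84.6%, stands beside 59.1% in the table and rests on 13 genes from related copies, so nothing particular to elongation is read from it.

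A gene described as a very-long-chain 3-oxoacyl-CoA reductase-like protein (Lsat_1_v5_gn_4_2460), a relative of the enzyme of the elongase's second step, was higher. Its values were 6.67, 6.66 and 5.41 in *LsAP2*-OE, against 1.10, 0.861 and 1.38 in WT. The log2 fold change was 2.40 (SE 0.20, limma adjusted p = 5.21e-06). The closest protein in the NR database was instead an inactive hydroxysteroid dehydrogenase-like protein, so the enzyme's activity is uncertain.

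Both copies described as *KCS21* were higher, by different amounts. Lsat_1_v5_gn_2_116340 had 11.1, 11.7 and 13.3 in *LsAP2*-OE, against 2.43, 2.40 and 2.31 in WT, a 5.06-fold higher mean (log2 fold change 2.29, SE 0.11, limma adjusted p = 3.43e-07). Lsat_1_v5_gn_2_116461 had 41.1, 40.3 and 42.9 in *LsAP2*-OE, against 21.5, 18.7 and 20.5 in WT, a 2.05-fold higher mean. The difference between the copies in log2 fold change, 2.29 against 1.03, is many times their standard errors of 0.11 and 0.07.

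The 3 copies described as *KCS12* also rose together. Lsat_1_v5_gn_2_116020 had 5.49, 5.78 and 4.85 in *LsAP2*-OE, against 1.33, 0.967 and 1.20 in WT, with a log2 fold change of 2.12 (SE 0.17). The other two copies, Lsat_1_v5_gn_9_21641 and Lsat_1_v5_gn_5_167261, averaged 4.79 ± 0.429 and 4.32 ± 0.862 in *LsAP2*-OE, against 1.76 ± 0.411 and 1.64 ± 0.173 in WT (SD, n = 3), with log2 fold changes of 1.41 and 1.33. No value of these copies in *LsAP2*-OE was as low as any in WT.

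The remaining KCS genes that rose had log2 fold changes between 0.96 and 1.51. The *KCS11* copies Lsat_1_v5_gn_3_123820 and Lsat_1_v5_gn_5_67800 averaged 75.8 ± 2.19 and 87.4 ± 1.66 in *LsAP2*-OE, against 33.1 ± 2.85 and 40.4 ± 2.63 in WT (SD, n = 3). *KCS9* (Lsat_1_v5_gn_9_108501), which in Arabidopsis lengthens chains for several lipid classes, averaged 2.43 ± 0.324 in *LsAP2*-OE and 0.899 ± 0.168 in WT (SD, n = 3). *KCS2* (Lsat_1_v5_gn_6_101321), a suberin-related enzyme of Arabidopsis roots, stayed at low values, 0.768, 1.02 and 0.808 in *LsAP2*-OE against 0.155, 0.260 and 0.316 in WT. Its log2 fold change of 1.51 became 0.59 when the pseudocount was 1.

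The *KCS6* copies moved in opposite directions. KCS6 is the main condensing enzyme for the longest wax chains of the Arabidopsis stem. Lsat_1_v5_gn_4_17680 had 51.5, 50.6 and 53.9 in *LsAP2*-OE, against 122, 129 and 130.1 in WT, and fell by 1.28 on the log2 scale (SE 0.06, limma adjusted p = 2.52e-07). Lsat_1_v5_gn_3_79841 had 107, 108 and 111 in *LsAP2*-OE, against 53.3, 57.6 and 56.0 in WT, and its log2 fold change was 0.96 (SE 0.06, limma adjusted p = 8.53e-07). The 3 libraries of each group lay close together in both copies.

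The only other KCS gene that fell was *KCS4* (Lsat_1_v5_gn_5_118821), with 6.12, 5.72 and 8.22 in *LsAP2*-OE against 19.1, 20.1 and 17.7 in WT, a log2 fold change of −1.51 (SE 0.14, limma adjusted p = 1.00e-05).

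**Figure D2:**
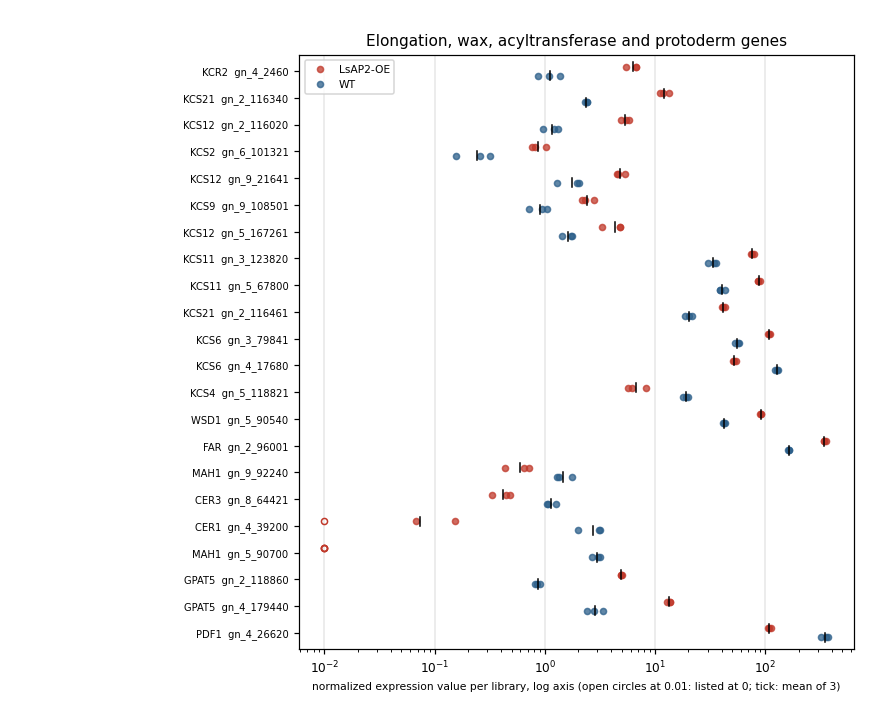
Normalized expression value of each library on a log axis for the elongation, wax, acyltransferase and protoderm genes, with red points for *LsAP2*-OE, blue points for WT and a tick for the mean of 3; open circles at 0.01 are values listed at 0. The groups are apart in every gene, and *CER1* and a *MAH1* gene reach 0 in *LsAP2*-OE only.

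Of the 6 genes described by enzymes of wax formation, 2 rose and 4 fell, beside 59.1% higher and 39.6% lower in the table. The plan had also placed the 3-oxoacyl-CoA reductase-like gene (Lsat_1_v5_gn_4_2460) here. That gene rose, so moving it to elongation lowered the share of wax genes that rose. In wax formation an alkane branch and an alcohol branch start from the same very-long-chain acyl-CoA. The 4 genes with descriptions from the alkane branch were the lower ones and the 2 from the alcohol branch the higher ones. This is a description of 6 genes, and a difference between the branches was not tested. The 4 lower genes had WT means of at most 2.97, so the size of their changes depends on the pseudocount.

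The alkane branch is formed by CER1 and CER3, which together turn a very-long-chain acyl-CoA into an alkane, and by MAH1, a cytochrome P450 that oxidises alkanes to secondary alcohols and ketones. *CER1* (Lsat_1_v5_gn_4_39200) had 0.0674, 0 and 0.152 in *LsAP2*-OE, against 2.01, 3.07 and 3.14 in WT. Its log2 fold change was −4.11 (SE 0.36, limma adjusted p = 7.12e-06), and −1.79 or −5.75 with a pseudocount of 1 or 0.01. *CER1* was thus close to or at 0 in each *LsAP2*-OE library.

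*CER3* (Lsat_1_v5_gn_8_64421) had 0.332, 0.439 and 0.487 in *LsAP2*-OE, against 1.07, 1.26 and 1.05 in WT, a 2.69-fold lower mean. One *MAH1* gene (Lsat_1_v5_gn_5_90700) was listed at 0 in all 3 *LsAP2*-OE libraries, against 2.69, 3.18 and 3.05 in WT, and no fold change is given for it. The other *MAH1* gene (Lsat_1_v5_gn_9_92240) had 0.646, 0.439 and 0.712 in *LsAP2*-OE, against 1.29, 1.75 and 1.36 in WT. Its log2 fold change of −1.17 (SE 0.23) had the highest adjusted p of the 52 genes, 0.00111 from limma, and 0.00497 at most over the alternatives. Its closest NR protein was a cytochrome P450 86B1-like protein, which is a fatty acid hydroxylase and not an alkane hydroxylase.

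In the alcohol branch, a fatty acyl-CoA reductase makes primary alcohols, and WSD1 joins such an alcohol to an acyl-CoA to form a wax ester. The reductase gene (Lsat_1_v5_gn_2_96001), named after the jojoba seed enzyme, had 351, 341 and 339 in *LsAP2*-OE, against 162, 165 and 164 in WT. Its log2 fold change was 1.07 (SE 0.05, limma adjusted p = 3.77e-07). *WSD1* (Lsat_1_v5_gn_5_90540) had 90.9, 89.6 and 91.6 in *LsAP2*-OE, against 40.9, 43.0 and 42.3 in WT, a log2 fold change of 1.11 (SE 0.05, limma adjusted p = 3.43e-07). Both changes were near the median of 1.03 over the table, which takes rises and falls together. They were below the median of 1.38 for all genes that rose. The closest NR protein of the reductase was a gland-specific enzyme of *Artemisia annua*, so its part in leaf wax is uncertain.

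In 5 of the 6 wax genes, all but *CER3*, the lowest WT value was that of replicate 1. These 5 include the *MAH1* gene Lsat_1_v5_gn_5_90700, for which no fold change is given. Replicate 1 was the lowest of the WT libraries in 43.2% of the table. Without this library the log2 fold changes were −4.31 for *CER1* (Lsat_1_v5_gn_4_39200), −1.28 for *CER3* (Lsat_1_v5_gn_8_64421), −1.25 for the *MAH1* gene Lsat_1_v5_gn_9_92240, 1.06 for the reductase gene (Lsat_1_v5_gn_2_96001) and 1.09 for *WSD1* (Lsat_1_v5_gn_5_90540).

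Both genes described as glycerol-3-phosphate acyltransferase 5 (*GPAT5*) rose. In Arabidopsis, GPAT5 attaches acyl chains to glycerol for the suberin of roots and seed coats. Lsat_1_v5_gn_2_118860 had 5.01, 4.93 and 4.88 in *LsAP2*-OE, against 0.820, 0.847 and 0.910 in WT, a 5.75-fold higher mean (log2 fold change 2.39, SE 0.15, limma adjusted p = 1.05e-06). Lsat_1_v5_gn_4_179440 had 13.8, 12.8 and 13.8 in *LsAP2*-OE, against 2.39, 3.33 and 2.81 in WT, a 4.73-fold higher mean (log2 fold change 2.22, SE 0.13, limma adjusted p = 9.71e-07). Over the alternatives the log2 fold changes were as low as 1.68 for Lsat_1_v5_gn_2_118860 and 1.92 for Lsat_1_v5_gn_4_179440. Which copy changed more thus depends on the setting.

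*PROTODERMAL FACTOR 1* (*PDF1*), a gene of the outermost cell layer in Arabidopsis, was lower. It had 108, 105.6 and 113 in *LsAP2*-OE, against 316, 373 and 352 in WT (Lsat_1_v5_gn_4_26620), a log2 fold change of −1.67 (SE 0.07, limma adjusted p = 2.40e-07). *PDF1* was 1 of 3 genes of the table on an epidermis marker list. All 3 were lower, as were 39.6% of the table, and nothing is read from a count of 3. *HOTHEAD* fell by 3.88 and *HDG11* fell by 1.11 on the log2 scale. The summed value of the 3 was 113 to 121 in *LsAP2*-OE and 348 to 406 in WT, and none of the 3 was at 0. The 3 genes on a list of the stomatal lineage summed to 6.73 to 7.54 in *LsAP2*-OE and 17.2 to 19.4 in WT, with both *TOO MANY MOUTHS* genes lower and *FAMA* higher. The part of these cell types in the results for surface lipid genes was not tested.

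The 6 lipid-transfer proteins held large changes in both directions. Non-specific lipid-transfer proteins (nsLTPs) are small secreted proteins with a cavity that binds lipids, and several are abundant in leaf epidermis. Of the 6 genes, 3 rose and 3 fell. Log2 fold changes spanned −3.21 to 2.43. The counts are too even and too few to set beside the shares of the table.

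The largest fall was in the gene described as nsLTP 1 of mulberry (Lsat_1_v5_gn_5_152441). Its values were 201, 212 and 200.1 in *LsAP2*-OE, against 2250.2, 1659 and 1817 in WT. The mean was 9.34-fold lower in *LsAP2*-OE, with a log2 fold change of −3.21 (SE 0.11, limma adjusted p = 7.81e-08). The 3 WT libraries differed among themselves by less than they did from any *LsAP2*-OE library.

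The other two genes that fell changed less. Lsat_1_v5_gn_1_72560, described by a sunflower nsLTP, had 6.44, 5.66 and 6.79 in *LsAP2*-OE, against 25.0, 21.2 and 22.7 in WT, a 3.64-fold lower mean. Lsat_1_v5_gn_8_143020, described as nsLTP 2 of apricot, had 4.52, 3.75 and 2.15 in *LsAP2*-OE, against 26.2, 17.2 and 14.7 in WT. It varied more than the others, at a log2 fold change of −2.46 (SE 0.29), and its closest NR protein was an alcohol dehydrogenase, so the name is uncertain.

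The 3 that rose had means 3.49- to 5.36-fold higher in *LsAP2*-OE. Lsat_1_v5_gn_1_72961, also described by a sunflower nsLTP, had 105.8, 109 and 114 in *LsAP2*-OE, against 24.5, 19.2 and 17.6 in WT (log2 fold change 2.43, SE 0.12, limma adjusted p = 3.09e-07). Lsat_1_v5_gn_5_152461, described by EP2, a secreted carrot protein found in the epidermis, had 253, 286 and 269 in *LsAP2*-OE, against 79.8, 61.1 and 68.7 in WT (log2 fold change 1.95, SE 0.10). Lsat_1_v5_gn_3_80601, described by the cowpea protein AKCS9, had 85.4, 87.7 and 94.1 in *LsAP2*-OE, against 29.6, 21.3 and 25.6 in WT (log2 fold change 1.81, SE 0.11). The 3 *LsAP2*-OE values of each gene lay above all of its WT values.

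WT replicate 1 was the highest WT library in all 6 lipid-transfer genes, while it was the highest in 33.2% of the table. Without this library the 3 lower genes had log2 fold changes of −3.09, −2.22 and −1.79 and the 3 higher genes had 1.92, 2.05 and 2.57, so each direction held.

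**Figure D3:**
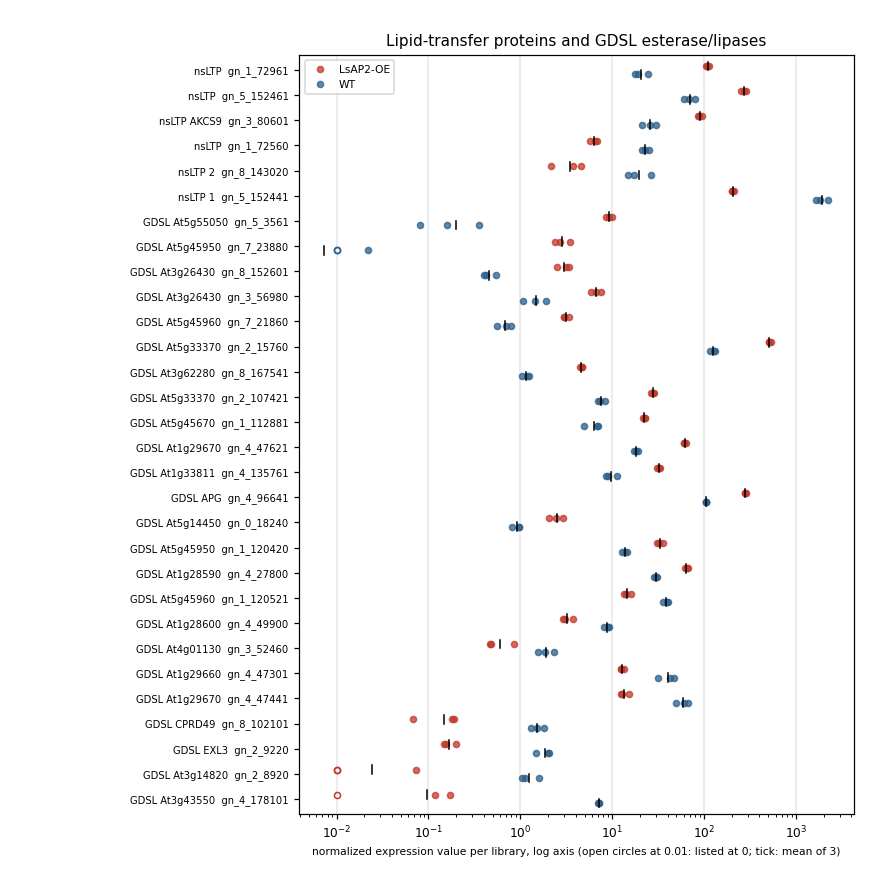
Normalized expression value of each library on a log axis for the 6 lipid-transfer proteins and 24 GDSL esterase/lipases, with red points for *LsAP2*-OE, blue points for WT and a tick for the mean of 3; open circles at 0.01 are values listed at 0. The nsLTP 1 gene lies between 200.1 and 212 in *LsAP2*-OE and between 1659 and 2250.2 in WT, and GDSL genes at the low end of the axis switch between near 0 in one group and above 1 in the other.

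The GDSL esterase/lipases formed the largest family and had the widest spread. These secreted hydrolases act on ester bonds of lipids and cell wall polymers, and some members assemble cutin or act on suberin. Of the 24 genes, 15 rose and 9 fell. Their median log2 fold change was 1.38, in a range of −5.31 to 5.07. The share that rose, 62.5%, is close to that of the table. A log2 fold change of at least 2 was found for 6 of them, beside 15.1% of the table. One of −2 or less was found for 5, beside 8.07% of the table.

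At the pseudocount of 0.1, the 6 largest changes of the family were in genes that were near 0 in a single group. Lsat_1_v5_gn_5_3561 (At5g55050) had 9.21, 9.91 and 8.54 in *LsAP2*-OE, against 0.0817, 0.160 and 0.352 in WT, a 46.6-fold higher mean (log2 fold change 5.07, SE 0.32, limma adjusted p = 1.12e-06). Lsat_1_v5_gn_7_23880 (At5g45950) had 2.73, 3.48 and 2.38 in *LsAP2*-OE, against 0, 0 and 0.0221 in WT. These 2 genes were close to silent in WT and measurable in every *LsAP2*-OE library.

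The 4 others were lower. Lsat_1_v5_gn_4_178101 (At3g43550) had 0.172, 0.117 and 0 in *LsAP2*-OE, against 7.12, 7.04 and 7.13 in WT, with a log2 fold change of −5.31 (SE 0.35, limma adjusted p = 1.57e-06). Lsat_1_v5_gn_2_8920 (At3g14820) had 0, 0.0737 and 0 in *LsAP2*-OE, against 1.11, 1.04 and 1.58 in WT. *EXL3* (Lsat_1_v5_gn_2_9220), an extracellular lipase, had 0.200, 0.157 and 0.149 in *LsAP2*-OE, against 1.47, 2.05 and 2.0 in WT. These 3 genes shared EXL3-like proteins as their closest NR match.

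*CPRD49* (Lsat_1_v5_gn_8_102101), which is named after a drought-induced cowpea gene, had 0.190, 0.0686 and 0.181 in *LsAP2*-OE, against 1.79, 1.30 and 1.51 in WT, a 10.5-fold lower mean. The size of all 6 of these changes depends on the pseudocount. With a pseudocount of 1 the log2 fold changes were 3.10, 1.93, −2.89, −1.12, −1.27 and −1.14, in place of 5.07, 4.78, −5.31, −3.46, −2.84 and −2.76, for At5g55050, At5g45950, At3g43550, At3g14820, *EXL3* and *CPRD49* (Lsat_1_v5_gn_5_3561, Lsat_1_v5_gn_7_23880, Lsat_1_v5_gn_4_178101, Lsat_1_v5_gn_2_8920, Lsat_1_v5_gn_2_9220 and Lsat_1_v5_gn_8_102101).

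The 4 GDSL genes with the highest mean value were all higher in *LsAP2*-OE. Lsat_1_v5_gn_2_15760 had 502, 534 and 503 in *LsAP2*-OE, against 115, 129 and 132 in WT, a 4.10-fold higher mean (log2 fold change 2.04, SE 0.07, limma adjusted p = 7.81e-08). It is described by At5g33370, which in Arabidopsis is the cutin synthase CUS2 of sepal ridges, although its closest NR protein was a putative zinc finger protein. A second gene of this name, Lsat_1_v5_gn_2_107421, averaged 27.6 ± 1.22 in *LsAP2*-OE and 7.58 ± 0.763 in WT (SD, n = 3), with a log2 fold change of 1.85.

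*APG* (Lsat_1_v5_gn_4_96641) had 279.8, 287 and 278 in *LsAP2*-OE, against 105, 105.9 and 105 in WT, a log2 fold change of 1.42 (SE 0.05). Lsat_1_v5_gn_4_27800 (At1g28590) had 61.6, 66.1 and 65.0 in *LsAP2*-OE, against 28.4, 30.1 and 31.0 in WT, a log2 fold change of 1.10 (SE 0.06). Lsat_1_v5_gn_4_47621 (At1g29670) had 60.6, 60.7 and 63.3 in *LsAP2*-OE, against 18.2, 18.9 and 17.5 in WT, a log2 fold change of 1.75 (SE 0.06). In these 3 genes the gap between the groups was far wider than the spread within either group.

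The 14 GDSL genes not among those 10 had log2 fold changes of 1.26 to 2.48 for the 9 that rose and of −2.11 to −1.41 for the 5 that fell. Some copies with the same description moved together, while those described as At1g29670 and those described as At5g45960 moved in opposite directions. Both genes described as At3g26430 rose, with log2 fold changes of 2.48 and 2.15, and so did both described as At5g45950 (4.78 and 1.26).

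Genes with the same name did not always move in the same direction. Names were compared without gene symbol or species, so a general name can join different proteins. Of the 38 names among the 52 genes, 4 held genes that rose beside genes that fell, which made 5 pairs. The log2 ratio of the genes of a pair within a library does not depend on how the library was scaled. Its sign depends on how values were scaled by gene length, which is unknown, so only its change between the groups is described. Since the pairs were chosen for their opposite changes, the differences below are a description, and 3 libraries against 3 cannot give an exact permutation p below 0.1.

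For *KCS6*, the log2 ratio of Lsat_1_v5_gn_3_79841 to Lsat_1_v5_gn_4_17680 was 1.05, 1.09 and 1.04 in *LsAP2*-OE, against −1.19, −1.16 and −1.21 in WT. The difference between the groups, 2.25, is far wider than the spread within either. For At1g29670, log2 ratios of Lsat_1_v5_gn_4_47621 to Lsat_1_v5_gn_4_47441 were 1.99, 2.29 and 2.31 in *LsAP2*-OE, against −1.43, −1.80 and −1.78 in WT. Lsat_1_v5_gn_4_47441 itself had 15.2, 12.4 and 12.6 in *LsAP2*-OE, against 49.3, 66.0 and 60.2 in WT. The ratio thus differed by 3.87 between the groups.

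For At5g45960, the log2 ratio of Lsat_1_v5_gn_7_21860 to Lsat_1_v5_gn_1_120521 was −2.14, −2.04 and −2.36 in *LsAP2*-OE, against −5.48, −5.50 and −5.93 in WT. The ratio differed by 3.45 in the same direction as the changes of the single genes. The nsLTP gene that fell, Lsat_1_v5_gn_1_72560, formed a pair with each of 2 that rose. Its partner Lsat_1_v5_gn_1_72961, which is also described by a sunflower protein, had log2 ratios to it of 4.02, 4.24 and 4.05 in *LsAP2*-OE, against −0.03, −0.14 and −0.36 in WT. The partner Lsat_1_v5_gn_5_152461 is described by the carrot protein EP2 and shares only the general family name with it. This partner had log2 ratios to it of 5.28, 5.63 and 5.29 in *LsAP2*-OE, against 1.67, 1.53 and 1.6 in WT. The sources used here do not say how reads that match more than 1 copy were counted, so values of similar copies are uncertain.

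**Figure D4:**
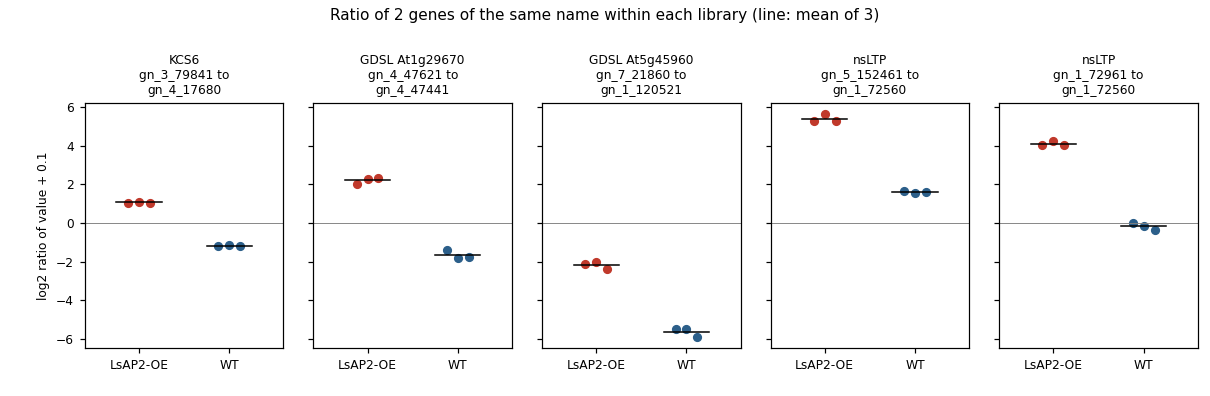
Log2 ratio of 2 genes of the same name, compared without gene symbol or species, within each library (value + 0.1). The 5 pairs are those whose members changed in opposite directions. Points are the 3 libraries of *LsAP2*-OE (red) and of WT (blue) and lines are means. The ratio is higher in *LsAP2*-OE by construction of the pairs, by 2.25 for *KCS6* and by 3.45 to 4.28 for the others, and the 3 libraries of a group lie close together in each pair.

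Genes on a separate list of description words for the cuticle pathway also went both ways. Of 13 genes, 8 were higher and 5 lower, with a median log2 fold change of 1.00, beside 1.03 in the table. The share that rose, 61.5%, is near the 59.1% of the table. One of the 5 is a starch synthase that was matched only through its gene name *WAXY*. The 8 include *LACS7*, a peroxisomal enzyme matched by the words long chain acyl-CoA synthetase. The counts are therefore of genes on the list, and not all are genes of the cuticle. The 4 that fell and act in cutin or its export are the 4 with the largest changes at the pseudocount of 0.1. Over the alternatives, the change of *CYP86A8* (Lsat_1_v5_gn_6_86481) was as small as −1.14, which is smaller than the rise of *CYP86A2* (Lsat_1_v5_gn_3_6461, at least 1.24 under every alternative).

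*HOTHEAD* (Lsat_1_v5_gn_5_135281), an oxidoreductase of cutin monomer synthesis, had 1.22, 1.28 and 1.06 in *LsAP2*-OE, against 18.9, 18.0 and 19.6 in WT, a 15.8-fold lower mean (log2 fold change −3.88, SE 0.12, limma adjusted p = 4.55e-08). *CYP86A8* (Lsat_1_v5_gn_6_86481), a fatty acid omega-hydroxylase, had 0.00219, 0.00175 and 0.00294 in *LsAP2*-OE, against 1.14, 1.22 and 1.27 in WT. These *LsAP2*-OE values were the smallest above 0 in each of those libraries. A *CYP77A3* gene (Lsat_1_v5_gn_4_60120), of a family of in-chain hydroxylases, averaged 20.2 ± 1.57 in *LsAP2*-OE and 66.1 ± 2.23 in WT (SD, n = 3). *ABCG11* (Lsat_1_v5_gn_5_73901), a transporter that exports wax and cutin precursors, averaged 5.93 ± 0.147 in *LsAP2*-OE and 19.2 ± 0.341 in WT (SD, n = 3).

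The 8 genes that rose had log2 fold changes of 0.95 to 1.33, a narrower range than that of the genes that fell. Among them were *CYP86A2*, a second *CYP77A3* gene, *LTPG1*, an anchored lipid-transfer protein of wax export, and *LACS7*, a peroxisomal acyl-CoA synthetase.

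On a list of fatty acid synthesis and desaturation, 12 of 13 genes were higher, with a median log2 fold change of 1.64. This share, 92.3%, also rests on few genes and related copies, and nothing particular to the list is read from it. These enzymes act in plastids or at the endoplasmic reticulum, and most are described as desaturases. Whether their products reach the elongase or the surface lipids was not tested. The 4 largest changes at the pseudocount of 0.1 were rises in desaturase genes, an order that other pseudocounts change. An endoplasmic omega-6 desaturase gene (Lsat_1_v5_gn_8_75280) had 6.42, 6.92 and 5.41 in *LsAP2*-OE, against 0.614, 0.50 and 0.690 in WT, a log2 fold change of 3.18 (SE 0.18).

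A gene described as the plastid delta-7 desaturase of palmitoyl-galactolipid (Lsat_1_v5_gn_2_58980) averaged 46.5 ± 5.21 in *LsAP2*-OE and 5.16 ± 1.12 in WT (SD, n = 3). A second gene of this name (Lsat_1_v5_gn_1_33441) and *FAD4* (Lsat_1_v5_gn_5_6120), which acts on plastid phosphatidylglycerol, had log2 fold changes of 2.78 and 2.76. The gene that fell, singled out after its value was seen, was a further delta-7 desaturase copy (Lsat_1_v5_gn_1_123741), with 0.342, 0 and 0.0881 in *LsAP2*-OE against 1.07, 1.76 and 0.956 in WT. Its log2 fold change was −2.70, and between −4.13 and −0.98 over the alternatives. On a list of epidermal regulators the table held only *HDG11* (Lsat_1_v5_gn_8_781), a homeodomain factor of the epidermis, with 6.38, 5.88 and 6.37 in *LsAP2*-OE against 12.4, 14.9 and 13.4 in WT.

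**Figure D5:**
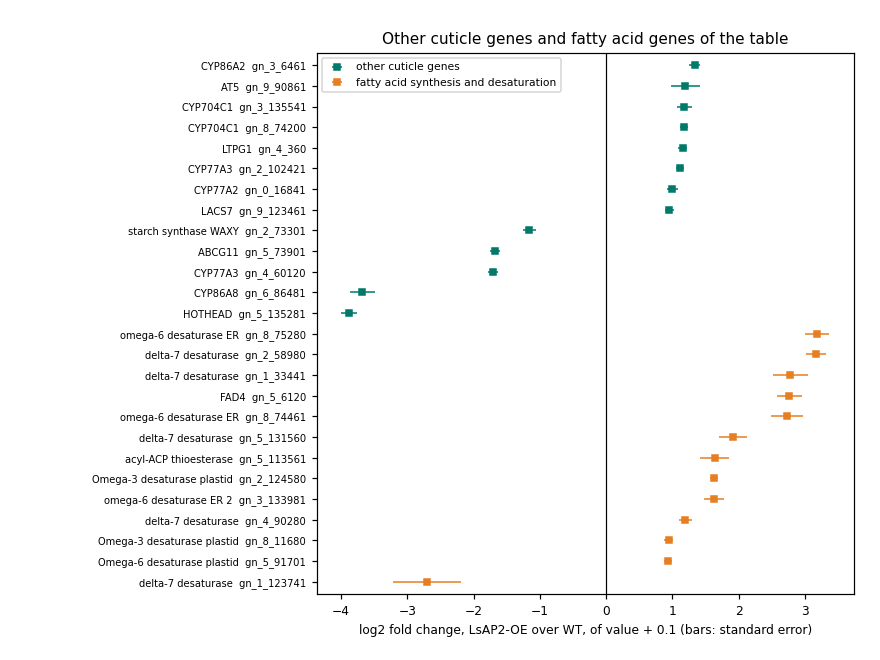
Log2 fold change (*LsAP2*-OE over WT, of value + 0.1) of 13 genes on the other cuticle list and 13 genes on the list of fatty acid synthesis and desaturation. Bars are the standard error from limma (3 libraries per group). Genes on the cuticle list that rose lie between 0.95 and 1.33 and *HOTHEAD* lies at −3.88. Of the 13 fatty acid genes, 12 lie right of 0, up to 3.18.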

How the data were processed

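Clean reads were aligned by the authors with HISAT2, and the authors called genes with DESeq. HISAT2, HISAT and DESeq are the tools that the authors' processing notes name. Tool versions, the quantifier and the genome build were not given in the sources used here. In the deposited table are the authors' normalized signal per gene and library, which was used, and the authors' FDR p-value and log2 fold change, which were not. Low values showed no common step, so neither reads nor depth could be recovered, and no counting interval is given.

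Groups were compared in R 4.3.3 by limma 3.58.1 on log2(value + 0.1) (mean-variance trend, no filter, no block, Benjamini-Hochberg over 2579 genes, calls at adjusted p below 0.01). The fit was also run on simulated data in which most genes were unchanged. All genes of the real table had been called, so that run does not show how the test behaves on it. Python 3.11.15, pandas 2.3.3, numpy 2.4.6 and matplotlib 3.10.9 were also used. The pseudocount understates changes of low genes. Adjusted p-values cover selected genes alone and are not false discovery rates over all genes.

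Members, roles and lists were chosen with earlier results of these data known. Genes were named by a rule: all members other than GDSL esterase/lipases and lipid-transfer proteins, the 6 largest changes and 4 highest means of those families, the 4 largest changes of each other list, *LsAP2* and opposite pairs. Others named were chosen after their values were seen. The 3-oxoacyl-CoA reductase-like gene was moved from the wax to the elongation role. Alternatives were pseudocounts of 1 and 0.01, a mean value of at least 1, no trend, centring within groups, a replicate block, leaving out each library, an adjusted p below 0.05, an added fold change of 2, NR descriptions, and lipid transfer spelled with a space. None of the gene IDs matched the RefSeq gene table (0 matches), so no coordinates or sequences are given.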

Additional observations from a re-analysis of the deposited data

How the results depend on the processing

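The counts of 33 higher and 19 lower among the 52 genes stayed the same with either other pseudocount, without the trend, with centring within groups, at an adjusted p below 0.05 and with each library left out in turn (33 to 33 higher and 19 to 19 lower). The counts over the table were then 1472 to 1501 higher and 996 to 1008 lower without a library. A filter on mean values of at least 1 left 32 higher and 16 lower, and took the fatty acid genes that fell to 0. An added fold change of 2 left 32 higher and 19 lower, and spelling lipid transfer with a space too gave 37 higher. When the words were matched to the NR descriptions, 12 genes were higher and 13 lower, because only 24 of the 52 genes carry the words there. With a pseudocount of 1, the difference in log2 ratio was 2.64 for the At5g45960 pair (3.45 otherwise) and 4.09 for the nsLTP pair Lsat_1_v5_gn_1_72961 and Lsat_1_v5_gn_1_72560 (4.28 otherwise). Replicate numbers are shared between the groups. Deviations of same-numbered libraries correlated at −0.01, −0.04 and 0.01, so no shared deviation was seen. Whether such libraries were prepared together cannot be told from this, and the main fit used no pairing. The fit with a replicate block gave 33 higher and 19 lower of the 52, and 1520 higher and 1018 lower over the table. Of 632 values of single genes under these alternatives, 632 kept their direction and their side of the threshold. Over the table, 2422 of the 2579 genes were called in every fit that held them. All had been selected as called between these libraries, so nothing particular to the 52 genes is read from this. Unknown depth limits what the low values can show: 4 of the 52 genes had a mean below 1, and 15 to 33 genes of the table were listed at 0 in a library.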

Other observations

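A further 4 genes of the table are described as a lipid transfer protein without the hyphen that the choice of the 52 genes asked for, and all 4 were higher in *LsAP2*-OE leaves, as were 59.1% of the table. Nothing is read from a count of 4 that holds 3 genes of one name. Besides *LTPG1*, they are 3 genes described as EARLI 1, a proline-rich cell wall protein with a lipid-transfer-like domain. Lsat_1_v5_gn_3_1361 had 52.4, 57.4 and 50.4 in *LsAP2*-OE, against 5.85, 3.43 and 4.38 in WT, a log2 fold change of 3.55 (SE 0.17, limma adjusted p = 3.28e-07). Lsat_1_v5_gn_3_221 had 26.2, 30.2 and 28.6 in *LsAP2*-OE, against 3.09, 2.85 and 4.47 in WT, a log2 fold change of 3.02 (SE 0.16). A gene with the ID of a new gene, Lactuca_sativa_newGene_4087, had 8.23, 9.46 and 8.57 in *LsAP2*-OE, against 2.21, 2.73 and 3.26 in WT. The first and second of these had larger rises than any of the 6 hyphenated lipid-transfer genes, whose highest log2 fold change was 2.43.

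The median coefficient of variation of the 52 genes was 7.43% in *LsAP2*-OE (51 genes with a mean above 0) and 12% in WT. Over the table the median was 10% in *LsAP2*-OE and 13% in WT. All genes of the table had been called between these same libraries, so nothing particular to the 52 genes is read from their spread.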
